A study of Mus musculus with 6 samples.

Results

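Striatal projection neurons are the principal GABA neurons of the striatum, and 9 genes that mark them were followed across the libraries of this series. They are Drd1, Drd2, Adora2a, Ppp1r1b, Penk, Pdyn, Tac1, Rgs9 and Pde10a, taken by symbol, and each matched exactly 1 of the 36210 gene rows. All 9 passed the filter on low counts that left 20363 genes for testing. The members were chosen with their values in these libraries known, so their levels and their difference between the groups are given as a description, with no test.

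The series compared APP/PS1 mice, which carry mutant amyloid precursor protein and presenilin transgenes and form amyloid plaques. At 8 months of age, one group had received AVE0991, a nonpeptide agonist at the angiotensin-(1-7) receptor Mas, at 10 mg per kg, and the other had received vehicle, 0.9% sterile saline. Both were given intraperitoneally once daily over 30 days, and each group has 3 libraries of ribosome-depleted RNA from material labelled as astrocytes of brain. No wild-type group is among the samples, so the transgenic background is shared by every library. How the astrocytes were isolated is not stated in the labels, which also do not say whether each library is a separate animal, and the spread described here is the spread between libraries.

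The striatum receives dopamine from the midbrain and glutamate from cortex and thalamus, and its output runs through a direct and an indirect population of projection neurons. Direct pathway neurons carry the D1 dopamine receptor and the peptides dynorphin and substance P. Indirect pathway neurons carry the D2 dopamine receptor, the adenosine receptor encoded by Adora2a and enkephalin. Both contain DARPP-32, a phosphatase inhibitor controlled by cyclic AMP, the GTPase-activating protein RGS9 and the cyclic nucleotide phosphodiesterase PDE10A. None of these genes is a marker of astrocytes.

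Promoter windows from RefSeq on GRCm38.p6, reaching from 250 bases before to 50 bases after an annotated start, were found for 6 of the 9 genes. There were 9 windows in all, since Drd1, Pdyn and Pde10a had further annotated starts. Adora2a, Ppp1r1b and Penk had no entry. The windows of Drd1 and Tac1, for direct pathway genes, and of Drd2, for an indirect pathway gene, are shown as examples of both pathways; capitals mark TGCGTCA, a cyclic AMP response element variant known from the enkephalin gene.
Drd1, chr13:54055609-54055908, - strand: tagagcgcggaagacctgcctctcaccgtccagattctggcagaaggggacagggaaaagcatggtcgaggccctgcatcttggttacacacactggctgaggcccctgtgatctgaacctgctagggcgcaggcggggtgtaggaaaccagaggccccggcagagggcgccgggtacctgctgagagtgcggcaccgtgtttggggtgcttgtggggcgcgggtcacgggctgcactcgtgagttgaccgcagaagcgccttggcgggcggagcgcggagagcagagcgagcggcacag
Tac1, chr6:7554811-7555110, + strand: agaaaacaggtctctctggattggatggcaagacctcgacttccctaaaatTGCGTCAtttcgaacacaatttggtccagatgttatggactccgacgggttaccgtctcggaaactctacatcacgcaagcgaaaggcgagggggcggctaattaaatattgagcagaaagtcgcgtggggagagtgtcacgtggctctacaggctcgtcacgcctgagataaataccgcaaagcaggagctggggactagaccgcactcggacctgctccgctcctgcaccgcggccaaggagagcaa
Drd2, chr9:49340153-49340452, + strand: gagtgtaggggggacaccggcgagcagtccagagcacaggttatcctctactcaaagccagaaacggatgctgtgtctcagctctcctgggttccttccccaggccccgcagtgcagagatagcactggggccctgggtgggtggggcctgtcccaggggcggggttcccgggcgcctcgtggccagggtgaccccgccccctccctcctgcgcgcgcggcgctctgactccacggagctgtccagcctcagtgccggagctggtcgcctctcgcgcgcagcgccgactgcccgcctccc
The Tac1 element starts 199 bases before the annotated start, and no other member window held it on either strand. It occurs in 2.12% of all 32851 windows of the same length. The palindrome TGACGTCA, present in 1.79% of all windows, was in none of the members' windows. TATAAA, present in 13.6%, was in the window of Rgs9, starting 195 bases before the annotated start. The GC content was 65.7% in the Drd1 window shown, 54% in the Tac1 window and 70.3% in the Drd2 window, against a median of 52.7% over all windows. The other Drd1 window, not shown, had 59.3%. Which start was used in these libraries was not analysed here.

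The libraries held 44583296 to 50066692 estimated counts on gene rows. Levels are given as CPM, counts divided by library sizes that were scaled by the trimmed mean of M-values (TMM), unless FPKM is named. Astrocyte transcripts were present in every library, but the material also held abundant neuronal and oligodendrocyte RNA: summed over 10 astrocyte genes the level was 6376 to 7908 CPM in AVE0991 and 5648 to 7013 CPM in vehicle libraries, and summed over 12 genes of cortical and hippocampal excitatory neurons it was 2002 to 5267 CPM in AVE0991 and 3484 to 6140 CPM in vehicle libraries. AVE0991 replicates 2 and 3 stood apart from the other libraries. Their 10 cerebellar granule cell genes summed to 2380 and 2339 CPM, against 336 CPM in AVE0991 replicate 1 and 292 to 354 CPM in vehicle libraries. The part of this difference in the results that follow was not tested. In such bulk samples fewer cells of a type and less RNA per cell cannot be told apart.

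Among the direct pathway genes, AVE0991 replicate 1 was the highest library and the other AVE0991 libraries were the lowest. Drd1, the D1 dopamine receptor, which raises cyclic AMP, measured 48.7, 3.03 and 6.60 CPM in AVE0991 replicates 1, 2 and 3 and 18.5, 19.2 and 37.8 CPM in vehicle replicates 1, 2 and 3. The AVE0991 libraries lay on both sides of the vehicle range and spanned 16.1-fold among themselves, while the vehicle libraries spanned 2.04-fold. Pdyn, the precursor of the dynorphins, which act on kappa opioid receptors, stood at 46.1, 6.68 and 9.37 CPM in AVE0991 and at 21.8, 22.3 and 27.1 CPM in vehicle libraries. It had the narrowest vehicle range of the 9 genes, 1.24-fold, and again AVE0991 values on both sides of it. Tac1, the precursor of substance P and neurokinin A, stood at 22.9, 5.75 and 2.16 CPM in AVE0991 and at 11.0, 10.9 and 19.6 CPM in vehicle libraries. Its lowest library was AVE0991 replicate 3, whereas that of Drd1 and Pdyn was AVE0991 replicate 2.

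Indirect pathway genes had the same highest library and differed in which of the other AVE0991 libraries was lower. Drd2, the D2 dopamine receptor, which lowers cyclic AMP, measured 48.9, 12.8 and 3.11 CPM in AVE0991 replicates 1, 2 and 3 and 12.5, 22.5 and 41.8 CPM in vehicle libraries. AVE0991 replicate 2 was thus at the level of the lowest vehicle library and replicate 3 below it. Adora2a, the adenosine receptor that opposes D2 receptor signalling, stood at 51.3, 3.96 and 4.65 CPM in AVE0991 and at 13.1, 18.9 and 40.8 CPM in vehicle libraries. For this receptor both low AVE0991 libraries lay under every vehicle library. Penk, the precursor of the enkephalins, stood at 205, 73.5 and 41.9 CPM in AVE0991 and at 60.9, 70.7 and 129 CPM in vehicle libraries. AVE0991 replicate 2 was inside the vehicle range for Penk.

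Of the genes used by both populations, Ppp1r1b, which encodes DARPP-32, stood at 493, 173 and 224 CPM in AVE0991 and at 168, 201 and 353 CPM in vehicle libraries. It was the 1 member whose lowest value, 168 CPM, was in a vehicle library. Rgs9, the RGS protein that speeds the shut-off of Gi/o signalling at dopamine and opioid receptors, stood at 82.5, 12.7 and 10.3 CPM in AVE0991 and at 30.0, 34.1 and 67.1 CPM in vehicle libraries. Pde10a, the striatal phosphodiesterase that degrades cyclic AMP and cyclic GMP, stood at 301, 96.4 and 97.0 CPM in AVE0991 and at 149, 157 and 307 CPM in vehicle libraries. Vehicle replicate 3 was its highest library, just above AVE0991 replicate 1. The groups overlapped for all 9 genes, while 30.6% of all genes tested had groups that did not overlap (14.3% with AVE0991 higher and 16.3% with AVE0991 lower).

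**Figure D1:**
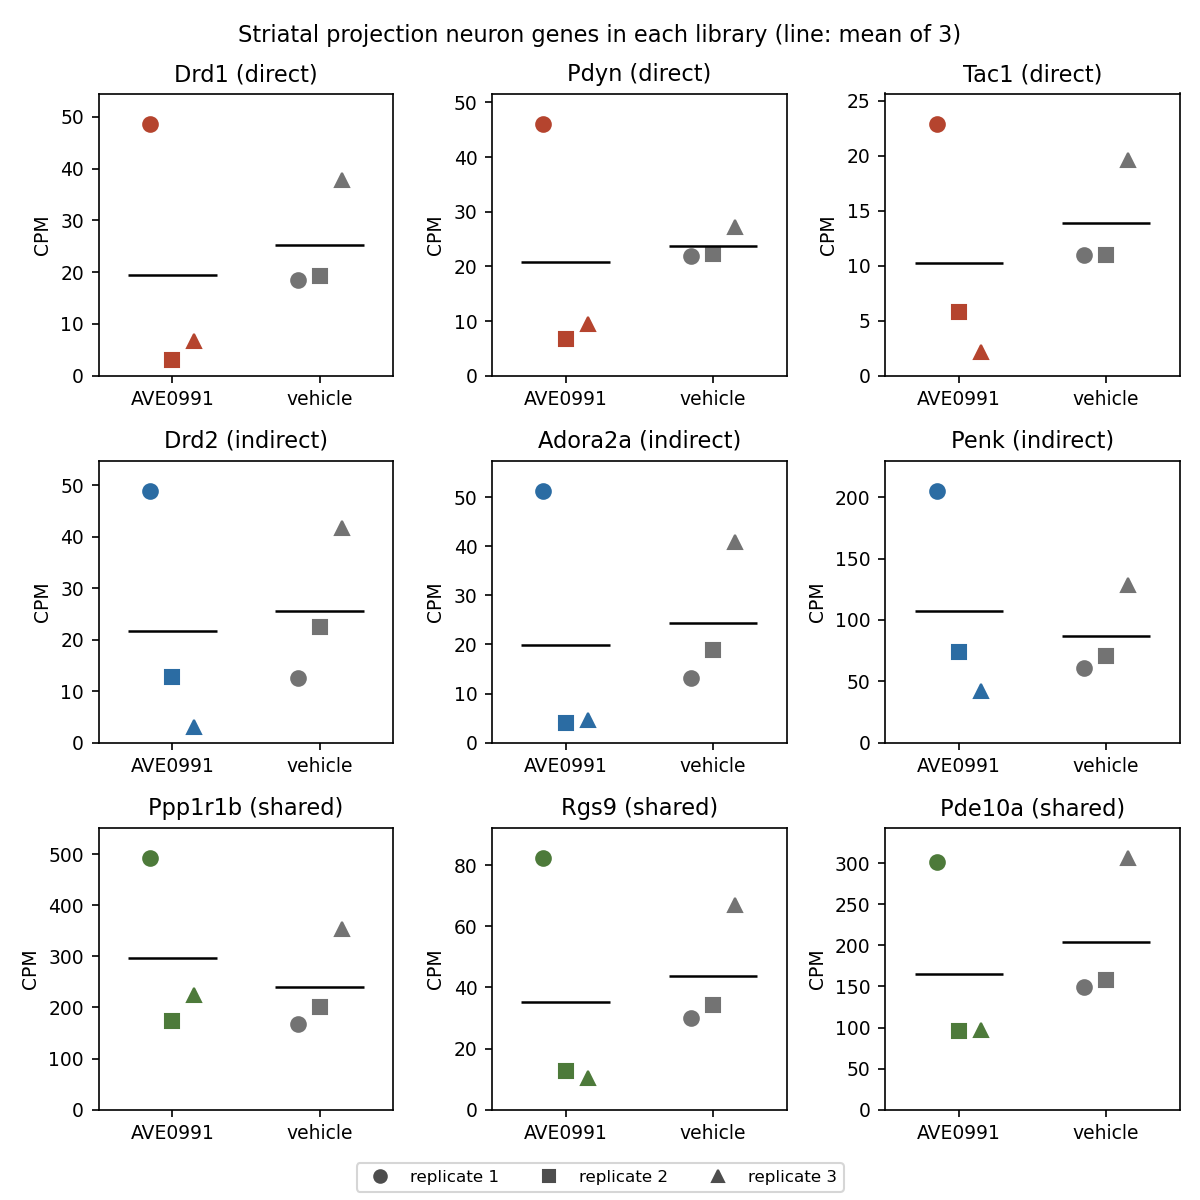
CPM of the 9 genes in each library on a linear axis from 0, with AVE0991 left and vehicle right, a symbol per replicate and a line at the mean of 3 libraries. In AVE0991 the circle of replicate 1 stands above replicates 2 and 3 for every gene, and for Drd1 the vehicle libraries lie between, with 48.7, 3.03 and 6.60 CPM in AVE0991 and 18.5 to 37.8 CPM in vehicle.

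Libraries of 1 group differed more than the group means did. AVE0991 replicate 1 was 1.47-fold (Pde10a) to 2.37-fold (Penk) above the vehicle mean and was the highest library for 8 of the 9 genes, as it was for 14.8% of 15753 tested genes with a mean of at least 1 CPM. AVE0991 replicates 2 and 3 were both below every vehicle library for 6 of the 9 genes, as they were for 25.3% of those genes, and both patterns held together for 5 members and 3.72% of those genes. The exceptions to the second pattern were Drd2, Ppp1r1b and Penk. Within vehicle, replicate 3 was the highest library for all 9 genes. The ratio of the highest to the lowest library ran from 2.93 for Ppp1r1b to 16.1 for Drd1, with a median of 7.97, against a median of 1.58 over the 15753 genes, of which 12.3% reached 2.93. The SD of log2 CPM had a median over the members of 1.65 in AVE0991 and 0.58 in vehicle libraries, against 0.22 in AVE0991 and 0.14 in vehicle libraries over the 15753 genes. These values helped to choose the members and are not evidence about them.

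**Figure D2:**
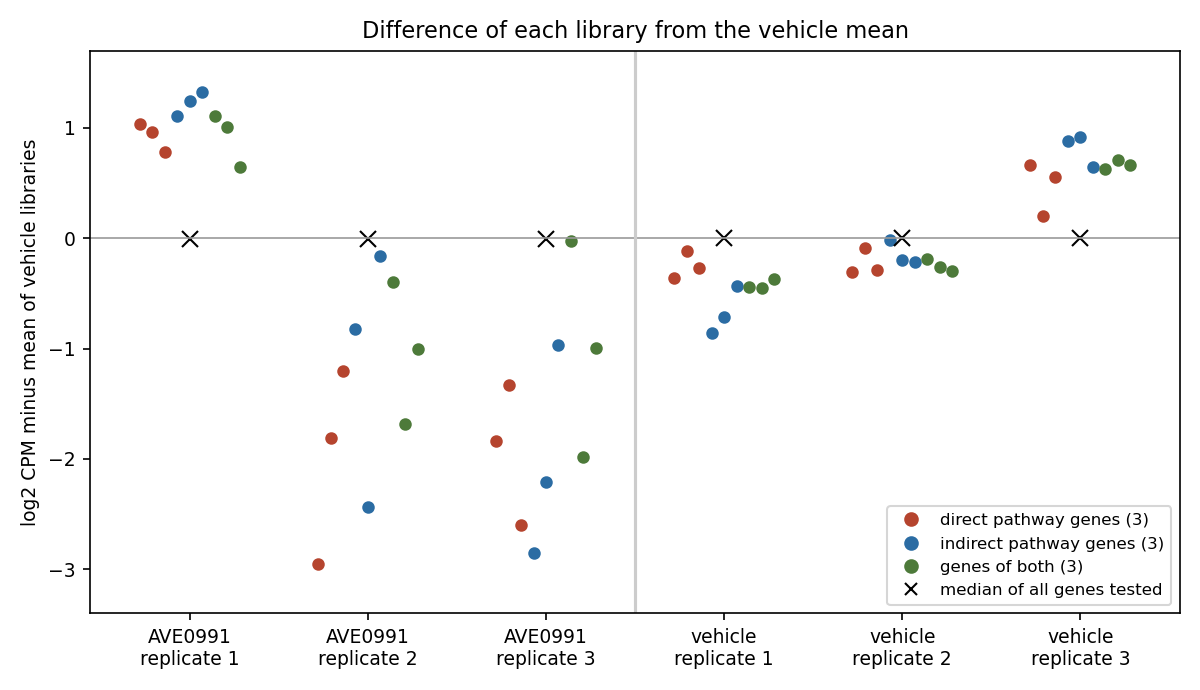
Log2 CPM of each gene minus its mean in the vehicle libraries, for the 6 libraries, with 1 point per gene coloured by pathway and a cross at the median of all genes tested. All 9 points are above 0 in AVE0991 replicate 1 (median 1.03) and below 0 in replicates 2 and 3 (medians -1.21 and -1.84), while the crosses stay at 0.

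The direct and indirect pathway genes overlapped in AVE0991 replicates 2 and 3. On the log2 scale the median difference from the vehicle mean in AVE0991 replicates 1, 2 and 3 was 0.96, -1.82 and -1.84 for the direct pathway genes, 1.24, -0.83 and -2.21 for the indirect pathway genes and 1.01, -1.002 and -0.99 for the genes of both. Each is a median of 3 genes. A ratio of counts of 2 genes within a library does not depend on the scaling of libraries, but it cannot show which of the 2 genes departed from the others. In AVE0991 replicate 2 the members furthest below the vehicle mean were Drd1 (-2.96) and Adora2a (-2.44). The ratio of Drd2 to Drd1 was 1.01, 4.23 and 0.47 in AVE0991 replicates 1, 2 and 3 and 0.67, 1.17 and 1.11 in vehicle replicates 1, 2 and 3. AVE0991 replicate 2 therefore held much more Drd2 per Drd1 than any other library. Its Tac1 to Drd1 ratio was also the highest, at 1.90, against 0.47 and 0.33 in the other AVE0991 libraries and 0.52 to 0.59 in vehicle libraries. Its ratio of Penk to Adora2a was 18.6, against 4.00 and 9.01 in AVE0991 replicates 1 and 3 and 3.15 to 4.63 in vehicle libraries. The ratio of Adora2a to Drd1, by contrast, stayed between 0.70 and 1.31 over the 6 libraries, a 1.86-fold range, while Drd1 spanned 16.1-fold and Adora2a 12.9-fold. Ppp1r1b per Rgs9 was 5.98, 13.7 and 21.6 in AVE0991 and 5.26 to 5.88 in vehicle libraries, and Pde10a per Rgs9 was 3.65, 7.59 and 9.37 in AVE0991 and 4.57 to 4.96 in vehicle libraries. Members on either side of these ratios are also expressed by cells outside the striatum, and the part of those cells in these ratios was not tested.

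**Figure D3:**
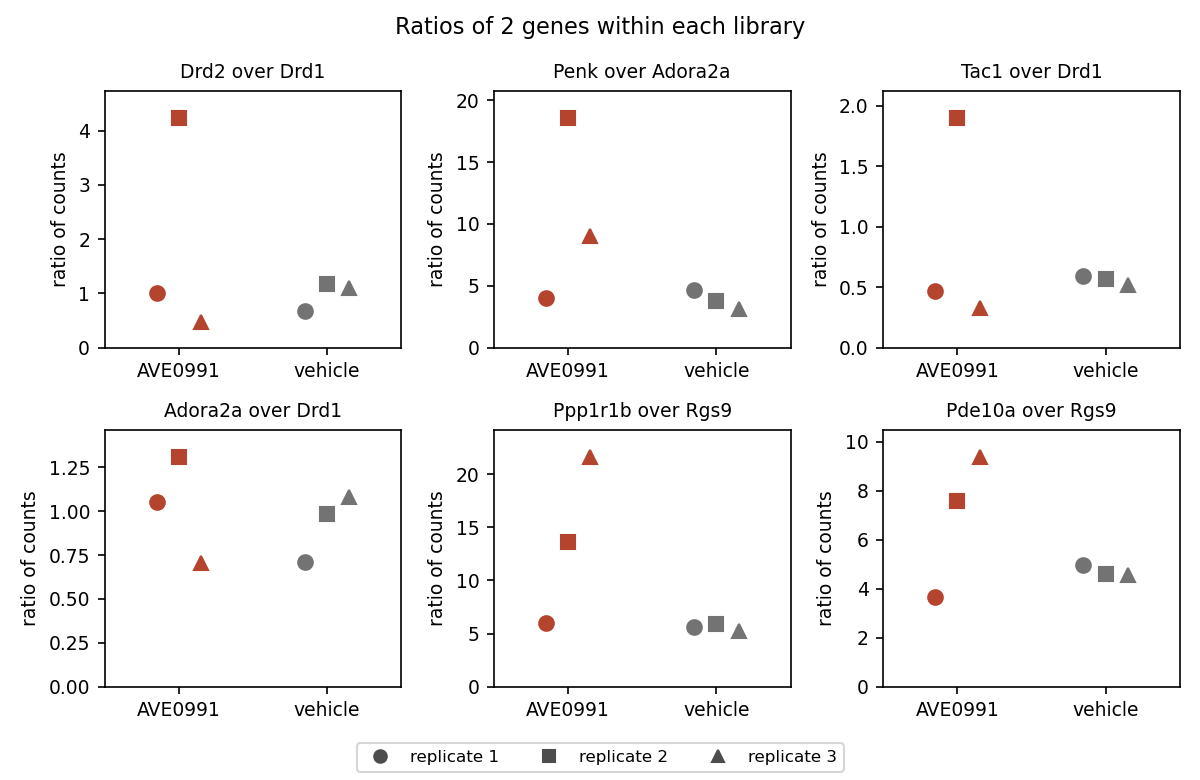
Ratio of the counts of 2 member genes within each library, on linear axes from 0, with AVE0991 left and vehicle right and a symbol per replicate. AVE0991 replicate 2 stands highest for Drd2 over Drd1 (4.23), Penk over Adora2a (18.6) and Tac1 over Drd1 (1.90), and the vehicle libraries lie close together for Ppp1r1b over Rgs9 (5.26 to 5.88).

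Between genes, levels were compared per length with the deposited FPKM values. Ppp1r1b was the most abundant member in each of the 6 libraries, Penk was next in each, and Pde10a came after them in each. Ppp1r1b stood at 157 ± 92.9 FPKM in AVE0991 and 131 ± 54.7 FPKM in vehicle libraries (SD, n = 3 each). Penk stood at 75.5 ± 63.2 FPKM in AVE0991 and 64.0 ± 27.3 FPKM in vehicle libraries, and Pde10a at 21.6 ± 15.6 FPKM in AVE0991 and 28.8 ± 11.5 FPKM in vehicle libraries. The other 6 genes had means of 5.59 to 12.6 FPKM in AVE0991 and 7.50 to 16.1 FPKM in vehicle libraries, with Rgs9 highest and Drd1 lowest in both groups. Means of neighbours in this order differed by less than the larger of their SDs, and their order changed between libraries; Drd2, for instance, was the fourth of the 9 in one library and the last in another.

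In the comparison of AVE0991 with vehicle, 7 of the 9 genes had a log2 fold change below 0 and 2 above, and every one was smaller than its standard error (SE). The log2 fold change was -0.43 (SE 0.77) for Tac1, -0.37 (SE 0.95) for Drd1 and -0.20 (SE 0.69) for Pdyn. It was -0.28 (SE 1.01) for Adora2a, -0.24 (SE 0.90) for Drd2 and 0.30 (SE 0.59) for Penk. It was 0.30 (SE 0.45) for Ppp1r1b, and -0.31 for both Rgs9 (SE 0.81) and Pde10a (SE 0.52). The median was -0.28, against -0.01 over all genes tested. No member was called by edgeR at an adjusted p under 0.05, and none had an unadjusted p under 0.05. Over all genes tested 0.864% were called, 0.0344% higher and 0.83% lower, and 23.6% had an unadjusted p under 0.05. DESeq2 and limma-voom called none of the 9 either. Over the 20363 genes DESeq2 called 994 higher and 1324 lower, and limma-voom called 525 higher and 770 lower. In limma-voom with quality weights all 9 were below 0 and 4 had an unadjusted p under 0.05, as had 30.3% of all genes. In the authors' deposited table the log2 fold changes of the same genes were -0.40 (Tac1) to 0.33 (Penk), with the same sign as here for each of the 9. The AVE0991 libraries lay on opposite sides of the vehicle mean. Without AVE0991 replicate 1 all 9 log2 fold changes were below 0, from -2.49 (SE 0.54) for Adora2a to -0.28 (SE 0.34) for Ppp1r1b, with a median of -1.68. In that fit 4 members, Drd1 (-2.38), Adora2a, Pdyn (-1.56) and Rgs9 (-1.92), were called lower and none higher, against 4.76% lower and 6.63% higher (11.4% in all) over all genes, and nothing is read from this count because the members were chosen on these values. With the GC correction in the same fit only Adora2a (-2.73) and Pdyn (-1.70) were called, Drd1 was at -2.32 and Rgs9 at -1.95 without a call, and 1.81% of all genes were called lower. Without AVE0991 replicates 2 and 3 all 9 were above 0, from 0.57 (SE 0.41) for Pde10a to 1.25 (SE 0.38) for Penk. That fit has 1 AVE0991 library, assumed to vary like the vehicle ones. Without AVE0991 replicate 2 or 3 or vehicle replicate 3, alone, the median of the 9 was 0.14, 0.16 and 0.14. The transcripts of the members ran from 42.8% GC (Tac1) to 61.0% GC (Ppp1r1b), and with a correction for GC content the log2 fold changes ran from -0.44 (Adora2a) to 0.16 (Penk), with the same sign for each gene.

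**Figure D4:**
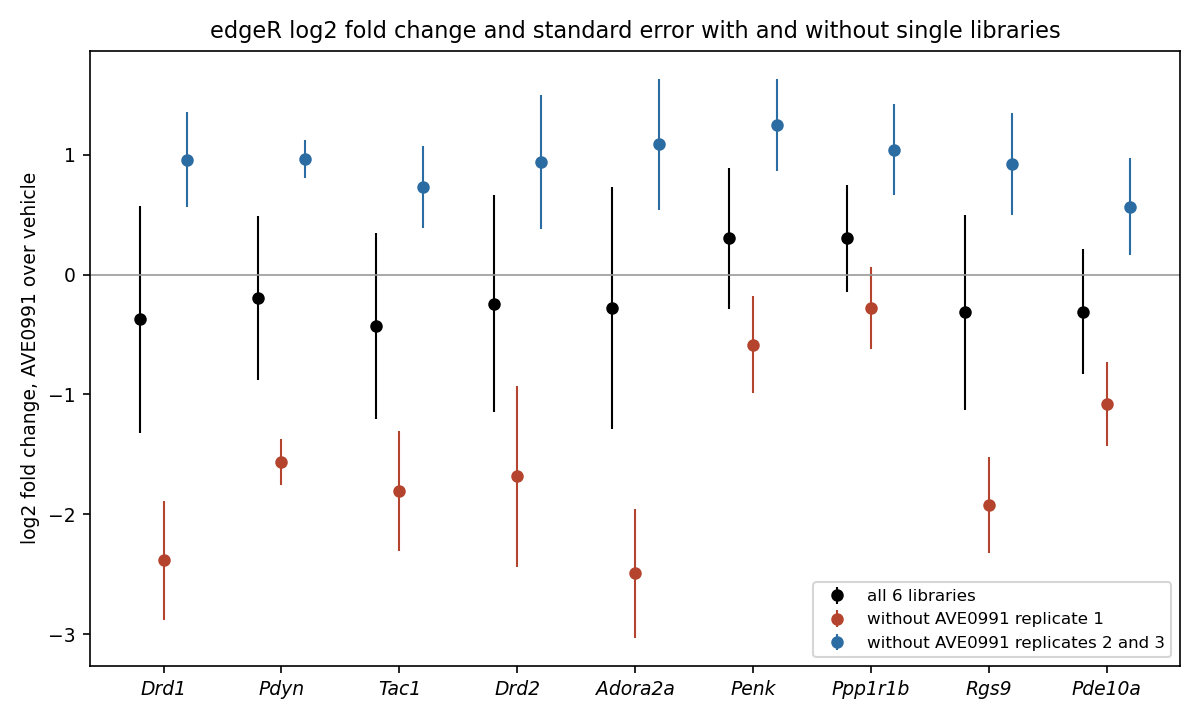
Log2 fold change of AVE0991 over vehicle with its standard error for each gene, in black with all 6 libraries, in red without AVE0991 replicate 1 and in blue without AVE0991 replicates 2 and 3. The black points lie near 0 (-0.43 to 0.30), the red ones below it and the blue ones above it.

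For genes that are no members but belong to the same neurons, the medians of the lists set the same libraries apart, though not every gene did. Of 30 other striatal projection neuron genes, 24 had a log2 fold change below 0, and the median was -0.21, against -0.01 over all genes tested. AVE0991 replicate 1 was the highest library for 16 of the 30. AVE0991 replicates 2 and 3 were both below every vehicle library for 19 and both above for 2. By edgeR 0 of 30 were called and 3 had an unadjusted p under 0.05, against 23.6% of all genes. The median difference from the vehicle mean was 0.55, -0.64 and -0.81 in AVE0991 replicates 1, 2 and 3 and -0.16, -0.15 and 0.27 in vehicle replicates. The genes of this list with the smallest p were not those that follow the members. Reln, an extracellular protein also made in quantity by cerebellar granule cells, averaged 335 ± 133 CPM in AVE0991 and 143 ± 26.7 CPM in vehicle libraries (edgeR adjusted p = 0.114), and Rgs7bp, which anchors RGS9 to the membrane, averaged 123 ± 6.04 CPM in AVE0991 and 165 ± 17.9 CPM in vehicle libraries (adjusted p = 0.111). Arpp19, a phosphatase regulator, averaged 55.6 ± 22.4 CPM in AVE0991 and 90.7 ± 12.8 CPM in vehicle libraries (adjusted p = 0.202). Without AVE0991 replicate 1 edgeR called 8 of the 30 lower, among them Gpr6, Adcy5 and Ptpn5, and 1 higher, Reln. Over all genes it called 4.76% lower and 6.63% higher. With the GC correction in that fit it called 3 lower, Adcy5, Ido1 and Ptpn5, and Reln higher. That compares with 378 lower and 806 higher of 20918 genes.

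Among transcription factors of the striatal lineage 0 of 17 were called by edgeR. An unadjusted p under 0.05 was found for 3 of them, against 23.6% of all genes, and the median log2 fold change was -0.26. Their median difference from the vehicle mean was 0.69, -1.85 and -0.96 in AVE0991 replicates 1, 2 and 3. By this median replicate 2 was the lowest library here, and replicate 3 was the lowest for the members. Single members differed in this, with replicate 2 lower for Drd1 and replicate 3 lower for Drd2. Rxrg, a retinoid receptor enriched in striatum, stood at 37.1, 4.24 and 4.45 CPM in AVE0991 and at 11.8, 11.8 and 26.5 CPM in vehicle libraries. Foxp1, a forkhead factor of striatum and cortex, averaged 97.5 ± 22.6 CPM in AVE0991 and 147 ± 16.8 CPM in vehicle libraries (adjusted p = 0.134). Zfp521 and Ebf1 were instead above every vehicle library in AVE0991 replicates 2 and 3. Zfp521 stood at 27.0, 113 and 90.0 CPM in AVE0991 and 25.1 to 33.6 CPM in vehicle libraries (edgeR adjusted p = 0.153), with replicate 1 inside the vehicle range. Without AVE0991 replicate 1 edgeR called 5 of the 17 lower and 2, Ebf1 and Zfp521, higher, against 4.76% lower and 6.63% higher over all genes. With the GC correction in that fit it called 3 lower and 2 higher, against 378 lower and 806 higher of 20918 genes.

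A further list held receptors of the peptides and enzymes that process their precursors. Of 10 tested, 0 were called by edgeR and 1, Pcsk1, had an unadjusted p under 0.05, against 23.6% of all genes. The median log2 fold change was -0.36. Pcsk1, a convertase that cuts proenkephalin and other precursors, averaged 18.0 ± 1.72 CPM in AVE0991 and 29.1 ± 3.56 CPM in vehicle libraries. On the log2 scale the change was -0.69 (SE 0.13, edgeR adjusted p = 0.0602). Pcsk1 was called lower by limma-voom and without AVE0991 replicate 1, but not when the latter fit had the GC correction. Pcsk2, the second convertase of the pathway, averaged 243 ± 65.4 CPM in AVE0991 and 316 ± 11.1 CPM in vehicle libraries (adjusted p = 0.286). Oprk1, the dynorphin receptor, stood at 6.68, 2.83 and 0.953 CPM in AVE0991 and at 2.38, 4.38 and 7.19 CPM in vehicle libraries. Among 23 relatives of the dopamine and adenosine receptors, the phosphodiesterases and the RGS and phosphatase partners, edgeR called 0. An unadjusted p under 0.05 was found for 6, against 23.6% of all genes, and the median log2 fold change was -0.22. Pde4b, a cyclic AMP phosphodiesterase found throughout brain, averaged 148 ± 12.2 CPM in AVE0991 and 228 ± 17.3 CPM in vehicle libraries. On the log2 scale the change was -0.63 (SE 0.11, edgeR adjusted p = 0.0570). Pde4b too was called lower by limma-voom and without AVE0991 replicate 1, but not when the latter fit had the GC correction. In this list limma-voom also called Pde9a higher, against 2.58% of all genes. The fit without AVE0991 replicate 1 called 4 higher, Adora1, Drd4, Pde1c and Pde9a, against 6.63% of all genes. With the GC correction that fit called 2 higher, Pde1c and Pde9a, and 0 lower, against 806 higher and 378 lower of 20918 genes. Adora1, the A1 adenosine receptor, stood at 190.3, 287 and 281 CPM in AVE0991 and at 190.1 to 200.2 CPM in vehicle libraries. In AVE0991 replicates 2 and 3 it was above every vehicle library, where Adora2a was below, but in replicate 1 it was inside the vehicle range.

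**Figure D5:**
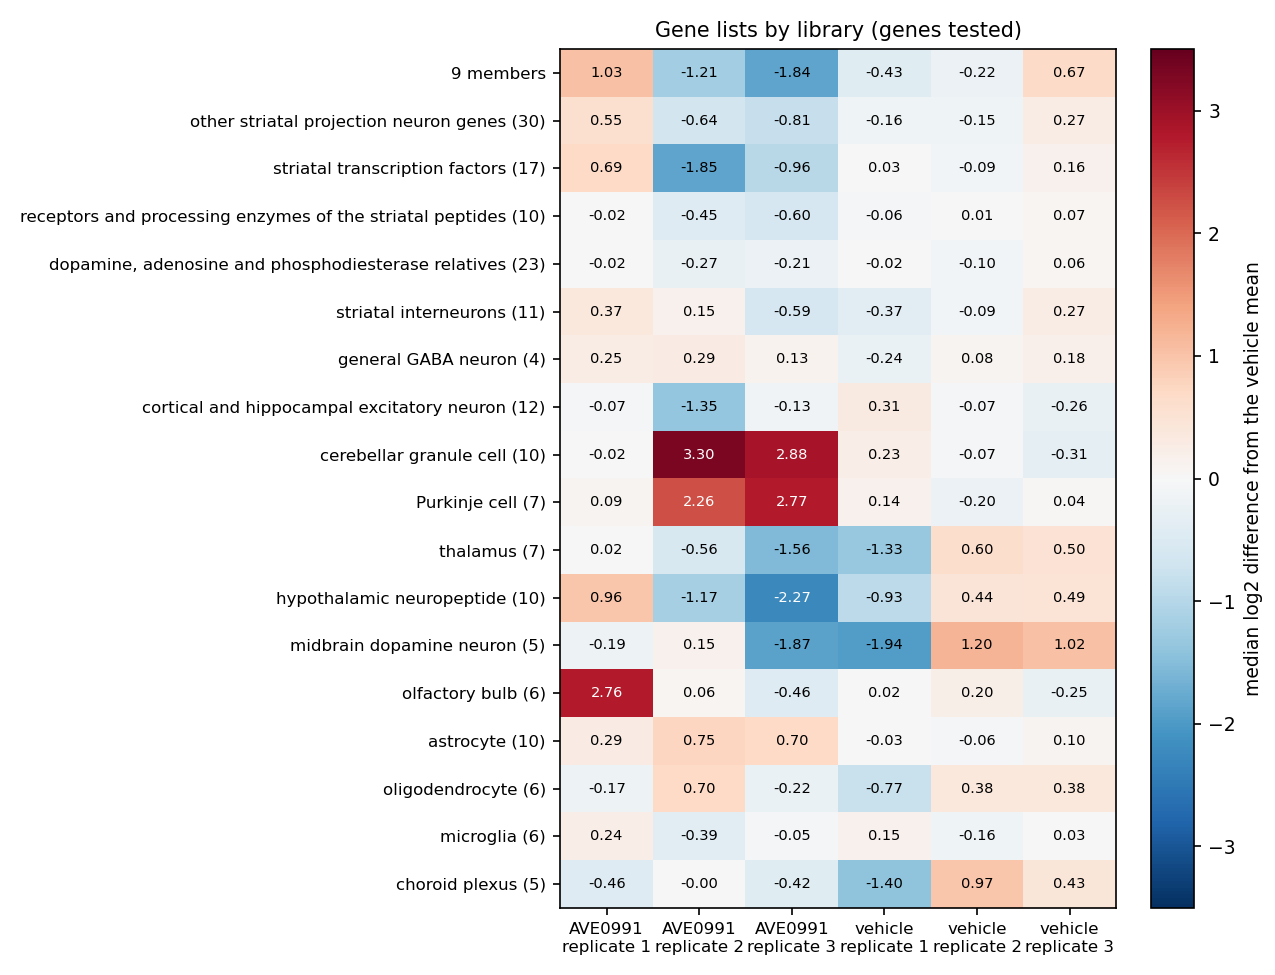
Median log2 difference from the vehicle mean for the 9 members and 17 gene lists (number of genes tested in brackets) in each library, red above and blue below the vehicle mean. The members and the lists of other striatal genes and transcription factors are above 0 in AVE0991 replicate 1 and below 0 in replicates 2 and 3, where the cerebellar granule cell list is at 3.30 and 2.88.

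Marker lists of other regions and cells, set beside the members, also differed between libraries of 1 group. All 10 cerebellar granule cell genes and all 7 Purkinje cell genes were above every vehicle library in AVE0991 replicates 2 and 3. Gabra6, a GABA-A receptor subunit of granule cells, stood at 1.18, 93.0 and 94.5 CPM in AVE0991 and at 1.55 to 5.75 CPM in vehicle libraries. The Purkinje list summed to 1085, 2614 and 3894 CPM in AVE0991 and 799.8 to 1045 CPM in vehicle libraries. Hypothalamic neuropeptide genes had sums of 131, 21.7 and 11.5 CPM in AVE0991 and 29.8, 103 and 90.0 CPM in vehicle libraries. Their sum was highest in AVE0991 replicate 1, but only 4 of the 10 genes tested were highest there. Within vehicle the sum was highest in replicate 2, not in replicate 3 as for the members. Doc2g, a gene of olfactory bulb projection neurons, stood at 23.9 CPM in AVE0991 replicate 1 and at 1.65 to 2.47 CPM in the other 5 libraries. Cortical and hippocampal excitatory genes were low in AVE0991 replicate 2 alone (median difference -1.35; -0.07 and -0.13 in replicates 1 and 3). General GABA neuron genes did not follow the members: their sum was 1224, 1396 and 1181 CPM in AVE0991 and 918 to 1161 CPM in vehicle libraries. The striatal interneuron list summed to 328, 518 and 564 CPM in AVE0991 and 271 to 293 CPM in vehicle libraries, most of it Nos1 and Pvalb, which are also expressed in cerebellum. Sums over the other lists ranged as follows. The thalamus list gave 256 to 378 CPM in AVE0991 and 224 to 614 CPM in vehicle libraries, and the midbrain dopamine neuron list 18.1 to 55.4 CPM in AVE0991 and 11.0 to 116 CPM in vehicle libraries. The olfactory bulb list gave 139 to 226 CPM in AVE0991 and 48.5 to 116 CPM in vehicle libraries, and the choroid plexus list 378 to 545 CPM in AVE0991 and 134 to 1384 CPM in vehicle libraries. Oligodendrocyte genes gave 5470 to 11782 CPM in AVE0991 and 3609 to 7876 CPM in vehicle libraries, and microglial genes 279 to 391 CPM in AVE0991 and 299.9 to 356 CPM in vehicle libraries. Slc6a3, the dopamine transporter of the midbrain neurons that supply the striatum, stood at 5.78, 2.98 and 1.34 CPM in AVE0991 and at 1.39, 47.6 and 23.9 CPM in vehicle libraries. The median log2 fold change was 2.29 for the granule cell, 2.08 for the Purkinje cell, 1.73 for the olfactory bulb, 0.63 for the astrocyte, 0.27 for the GABA neuron and 0.09 for the oligodendrocyte list. It was -0.04 for microglia, -0.10 for interneurons, -0.13 for hypothalamic neuropeptides, -0.36 for cortical and hippocampal excitatory neurons, -0.46 for choroid plexus, -0.49 for midbrain dopamine neurons and -0.61 for thalamus. An unadjusted p under 0.05 was found for 8 of 10 granule cell, 5 of 7 Purkinje cell and 7 of 10 astrocyte genes, against 23.6% of all genes, and edgeR called none of them; over all lists DESeq2 called 25 genes higher and 5 lower. Without AVE0991 replicate 1 edgeR called 9 of 10 granule cell, 7 of 7 Purkinje cell and 6 of 10 astrocyte genes higher, against 6.63% of all genes. With all libraries limma-voom called 5, 2 and 5 of them higher, and over all genes it called 2.58% higher and 3.78% lower. Over the 171 genes tested in these lists edgeR called 1, Eomes of the olfactory bulb list (log2 fold change 2.81, adjusted p = 0.0374), and 41 had an unadjusted p under 0.05, a share close to the 23.6% of all genes. The part of regional composition in the values of the 9 genes was not tested.

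Genes whose log2 CPM over the 6 libraries was most like the mean profile of the members, by Pearson correlation, were Tmod1, Pde1b, Rasd2, Adcy5, Rxrg, Lsp1, Sntg2, Gem, Fam32a and Cgref1, with r of 0.98 to 1.00. The members themselves had r of 0.82 (Ppp1r1b) to 0.99 (Rgs9). These correlations rest on 6 libraries and describe them only. Pde1b, a calmodulin-dependent phosphodiesterase, stood at 424, 144 and 120 CPM in AVE0991 and at 188, 225 and 329 CPM in vehicle libraries. Adcy5, the main adenylyl cyclase of the striatum, stood at 451, 170 and 158 CPM in AVE0991 and at 250, 244 and 352 CPM in vehicle libraries. Rasd2, which encodes the striatal GTPase Rhes, stood at 253, 62.3 and 61.4 CPM in AVE0991 and at 94.5, 113 and 186 CPM in vehicle libraries. Tmod1, an actin-capping protein, had the profile most like theirs but a narrow range, 26.1 to 32.1 CPM in AVE0991 and 28.7 to 31.2 CPM in vehicle libraries.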

How the data were processed

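The submitters' processing notes name HISAT and mm9. How reads were counted, with or without strand, and on which annotation is not stated in the sources used here. The deposited table held estimated counts of 36210 gene rows (81.6% of the counts were whole numbers) and 11824 circular RNA rows without host genes, and the authors' FPKM per library, a unit read from the values. The authors' deposited comparison held a log2 fold change, p-values and q-values from DESeq2, per the file headers; its sign, which was AVE0991 over vehicle by comparison with the counts, is used here and its p-values are not.

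Estimated counts of gene rows were rounded; 8202 of the gene rows carry only a provider's ID, hold 7.45% to 10.5% of the counts of a library and were kept. The test was edgeR 4.0.16 (R 4.3.3) with filterByExpr, TMM, and a robust quasi-likelihood F test without covariates, with Benjamini-Hochberg adjustment over 20363 genes and a call at an adjusted p under 0.05. The SE is |log2 fold change| over the root of the F statistic. Log2 CPM used a prior count of 2. The test was checked on simulated counts. No 2 libraries matched within sampling noise (chi-square of at least 16.4 per gene), so all 6 counted as separate. GC content came from the longest GENCODE M21 transcript (GRCm38), for 82.8% of genes tested. DESeq2 1.42.0, limma 3.58.1, other scalings and filters, and fits without single libraries were alternatives.

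The members, the 17 lists and the tests were chosen with earlier results of these data known. Named genes were the members, up to 4 genes per list by smallest p, defining markers of a list, and the 10 genes most like the members; Oprk1, Adora1 and the genes named as called without AVE0991 replicate 1 were named after their values were seen. The circular RNA rows name no host gene and were not used for the members.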

Additional observations from a re-analysis of the deposited data

How the results depend on the processing

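The number of genes called depended on the processing. Against 7 genes higher and 169 lower by edgeR, DESeq2 called 994 and 1324, limma-voom 525 and 770, edgeR without a filter 58 and 379, 18 and 329 where a mean of 1 CPM was required, with circular RNA rows in the same fit 1 and 1, and with the GC correction 1 and 0. Leaving out single libraries gave 0 to 1386 higher and 0 to 995 lower, the upper ends without AVE0991 replicate 1; with any other library left out edgeR called 0 (unadjusted p under 0.05: 3205 to 3818 genes). Without AVE0991 replicates 2 and 3 it called 0 and 0 (2833 at an unadjusted p under 0.05), and with the GC correction and without AVE0991 replicate 1 it called 806 and 378; both fits were chosen after seeing the data. For the genes of the 17 lists, 1 higher and 0 lower by edgeR, the counts were 25 and 5 with DESeq2, 16 and 3 with limma-voom, 4 and 3 without a filter, 1 and 1 where a mean of 1 CPM was required, 0 and 0 with circular RNA rows or the GC correction, 0 to 33 higher and 0 to 20 lower without single libraries, 0 and 0 without AVE0991 replicates 2 and 3, and 28 and 10 with the GC correction and without AVE0991 replicate 1. The cause was not tested.

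Of 153 alternative log2 fold changes of the 9 members, 133 moved by less than the spread between replicates and 20 by more. That spread holds the distance between AVE0991 replicate 1 and replicates 2 and 3, so even a change of sign could stay within it. Drd1, for instance, went from -0.37 to 0.96 without AVE0991 replicates 2 and 3 and was counted as moved by less. Stability is therefore not read from the 133. The median of the members was -0.82 with the replicate block, -1.54 with limma-voom quality weights and -0.32 with the GC correction. With the replicate number as a block edgeR called 0 genes higher and 0 lower (3937 at an unadjusted p under 0.05), and likewise 0 and 0 with the block and the GC correction (2509). Same-numbered libraries deviated together with r of -0.02, 0.09 and -0.35, so the numbers were not taken as pairs. DESeq2 size factors or the GC correction left the median difference of the members from the vehicle mean at 1.01 to 1.07 in AVE0991 replicate 1, at -1.21 to -1.05 in replicate 2 and at -1.84 to -1.78 in replicate 3. The smallest count of any member was 95 (Tac1 in AVE0991 replicate 3), and the 3 libraries per group limit the precision of every comparison.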

Other observations

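Many genes of the 17 lists departed from the members in AVE0991 replicate 2, among them the granule cell and Purkinje cell genes given above. The genes given here were picked out after their values were seen. Scn4b, a sodium channel beta subunit of striatal and Purkinje neurons, stood at 170, 254 and 57.4 CPM in AVE0991 replicates 1, 2 and 3 and at 58.6, 90.5 and 197 CPM in vehicle libraries, so that AVE0991 replicate 2 was its highest library. The cholinergic genes Slc5a7 (choline transporter) and Slc18a3 (vesicular acetylcholine transporter) were also highest there, with Slc5a7 at 4.87, 17.2 and 0.590 CPM in AVE0991 and 2.93 to 8.37 CPM in vehicle libraries, and Slc18a3 at 4.61, 17.7 and 0.250 CPM in AVE0991 and 1.81 to 6.73 CPM in vehicle libraries. In the same list Chat was highest in AVE0991 replicate 2 too, at 9.73 CPM. Lhx8 went the other way, at 0.0653 CPM there and 1.35 to 1.83 CPM in vehicle libraries. No test was made of these patterns.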
